A study of Mus musculus with 2 samples.

Results

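Genes that mark Kupffer cells or encode the chains of complement C1q, 9 in all, were followed through both single-cell libraries of the study. They were the genes Clec4f, Marco, Cd5l, Vsig4, Folr2, Siglec1, C1qa, C1qb and C1qc, 9 of the 19059 genes in the deposited count matrices, and all 9 were present in both. They were given as a list of names, with earlier results of these data known. One library carried the label AEG-1ΔMAC (written AEG-1DMAC in the labels), for mice that lack AEG-1 in myeloid cells, and 1 carried the label AEG-1fl/fl, for floxed littermates without that deletion. By the study's methods the floxed allele was made in the C57BL/6/J background and the deletion was driven by LysM Cre, which acts in macrophages, monocytes and neutrophils. Mice of both labels received the high fat and high sugar diet (HF/HSD) from the age of 7 weeks until their livers were taken at 27 weeks, that is for 20 weeks. The sources used here do not state how many livers or which sex a library holds. Counts of 4 of 4 Y-linked genes were present in both libraries, with 4821 and 5218 counts of Ddx3y.

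Kupffer cells are the macrophages that reside in the liver sinusoids, where they take up bacteria, lipoproteins, iron and dying cells from the blood. Their identity genes encode mainly surface receptors for such cargo. Monocyte-derived macrophages that enter a fatty liver express less of these genes at first and gain some of them with time in the sinusoidal niche. C1q is the recognition molecule of the classical complement pathway. It binds antibody complexes and dying cells, and tissue macrophages make most of it, whereas hepatocytes make many of the later complement proteins.

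Each cell was placed in a class by lists of marker genes that hold none of the 9 genes. A class is written with the ending "-like" because it was rebuilt from markers. For every class but the hepatocyte-like one, the share of a cell's counts in a list had to be at least 4 times a reference share. The reference was the list's share of the summed counts of all kept cells, averaged over the libraries. At least 3 genes of the list had to be detected, and the list had to lead every other list by 2-fold. The hepatocyte list was left out of that last rule, so hepatocyte RNA alone did not set a cell aside. Levels are counts per 1000000 of the summed counts of a class (CPM), with Poisson 95% intervals. A ratio is the log2 of the AEG-1ΔMAC-labelled level divided by the AEG-1fl/fl-labelled level, with Clopper-Pearson intervals. Where a pair of values is given, the first belongs to the library labelled AEG-1ΔMAC and the second to the library labelled AEG-1fl/fl. With 1 library of each label, no test between the labels was possible, and all intervals cover counting error only, not the variation between mice. The assay counts probes that bind each transcript, so levels of different genes were not compared with each other.

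The cell filter kept 2571 of 2581 and 3508 of 3535 cells, which held 79483780 and 90081981 counts. The median cell had 12746 and 7682.0 counts. The libraries shared 10 cell barcodes, and doublets were not called. Mtdh, which encodes AEG-1, was measured first. In macrophage-like cells it had 242 and 106 counts, or 145 CPM (128 to 165) and 20.7 CPM (17.0 to 25.1), so its level was the higher one under the label of the deletion. In hepatocyte-like cells it was nearly equal, at 61.7 and 58.2 CPM. Lyz2, the locus that carries LysM Cre, had 2608 and 1403 CPM in macrophage-like cells. Which part of Mtdh the probes cover and which part the deletion removes is not given in the sources used here. Since the targeted gene went against the labels, the libraries are named only by the labels they carry, and all directions depend on those labels.

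Macrophage-like cells numbered 234 (9.10% of kept cells) and 663 (18.9%), with 1664945 and 5116010 counts and medians of 5374 and 5486 counts per cell. All 8 genes of the macrophage list, such as Adgre1 and Csf1r, were detected in them, at 9347 and 11734 CPM summed. Of the 8, 7 had a ratio below 0 and none passed 2-fold, with a median of -0.19. Genes of the hepatocyte list took 4.70% and 3.87% of their counts, which is 32.0% and 26.2% of their share in hepatocyte-like cells. Their weight in the ratios was measured by a subtraction given with those values.

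The C1q genes lie side by side on chromosome 4 of the mouse genome (GRCm38, GENCODE vM21 annotation), and all 3 are read from the minus strand. C1qb (ENSMUSG00000036905) runs from 136880129 to 136886187, C1qc (ENSMUSG00000036896) from 136889804 to 136893065 and C1qa (ENSMUSG00000036887) from 136895917 to 136898803. Together they span 18675 bases, with 3616 bases between C1qb and C1qc and 2851 bases between C1qc and C1qa. The other genes are scattered over the genome. Clec4f (ENSMUSG00000014542) lies on chromosome 6 from 83644542 to 83656187, Marco (ENSMUSG00000026390) on chromosome 1 from 120474538 to 120505024 and Folr2 (ENSMUSG00000032725) on chromosome 7 from 101839988 to 101857194. Vsig4 (ENSMUSG00000044206) lies on chromosome X from 96247203 to 96293438, and Siglec1 (ENSMUSG00000027322) on chromosome 2 from 131069220 to 131086765. Those 5 are read from the minus strand. Cd5l (ENSMUSG00000015854) is read from the plus strand of chromosome 3 from 87357881 to 87371073.

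Promoters were searched on both strands for the core motifs of factors known to act in macrophages. These were GAGGAA for PU.1, TGCTGA for Maf and TGGGAA for RBPJ, the nuclear partner of Notch, and none of the 3 overlapped another in the promoters shown. A promoter here is the RefSeq window of 300 bases that begins 250 bases before a start site (GRCm38.p6). Such windows were at hand for 7 of the 9 genes, all but Siglec1 and C1qa. The PU.1 core was found in 5 of the 7 (Marco, Cd5l, Vsig4, C1qb and C1qc), the Maf motif in 5 (Clec4f, Cd5l, Vsig4, Folr2 and C1qb) and the RBPJ core in 2 (Clec4f and Marco). Among 32851 mouse promoters of the same length, 28.3%, 19.5% and 25.6% held the PU.1, Maf and RBPJ letters. A match describes the letters and does not show a bound site. The promoters of C1qb and C1qc, neighbours whose levels moved the same way, and of Clec4f and Marco, which moved the other way, are shown 5′ to 3′ on the strand of the gene. Capitals mark the motifs on either strand, and the windows are chr4:136886151-136886450 for C1qb, chr4:136892865-136893164 for C1qc, chr6:83656067-83656366 for Clec4f and chr1:120504975-120505274 for Marco, all on the minus strand.
C1qb: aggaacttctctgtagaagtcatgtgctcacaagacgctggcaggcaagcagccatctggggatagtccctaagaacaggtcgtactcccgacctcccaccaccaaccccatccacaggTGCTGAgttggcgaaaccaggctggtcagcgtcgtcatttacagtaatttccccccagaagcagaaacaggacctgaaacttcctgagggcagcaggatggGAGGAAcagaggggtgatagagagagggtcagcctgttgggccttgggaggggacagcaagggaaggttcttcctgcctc
C1qc: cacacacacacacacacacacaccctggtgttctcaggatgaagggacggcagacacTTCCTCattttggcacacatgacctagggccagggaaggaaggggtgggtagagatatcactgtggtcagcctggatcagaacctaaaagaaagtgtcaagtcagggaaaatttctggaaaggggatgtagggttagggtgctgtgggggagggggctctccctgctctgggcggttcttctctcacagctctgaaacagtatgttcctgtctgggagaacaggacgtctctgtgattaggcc
Clec4f: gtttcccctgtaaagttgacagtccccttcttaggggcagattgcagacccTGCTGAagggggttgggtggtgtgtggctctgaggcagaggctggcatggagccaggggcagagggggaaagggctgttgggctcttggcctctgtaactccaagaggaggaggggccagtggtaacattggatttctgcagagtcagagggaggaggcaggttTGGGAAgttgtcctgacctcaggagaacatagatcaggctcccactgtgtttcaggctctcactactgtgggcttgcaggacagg
Marco: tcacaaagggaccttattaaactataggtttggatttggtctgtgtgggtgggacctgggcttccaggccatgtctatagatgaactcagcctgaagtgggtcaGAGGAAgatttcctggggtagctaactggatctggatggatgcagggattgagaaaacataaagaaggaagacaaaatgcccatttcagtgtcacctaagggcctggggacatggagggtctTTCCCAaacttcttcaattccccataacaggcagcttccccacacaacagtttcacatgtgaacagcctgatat
C1qb held a Maf motif 131 bases and a PU.1 core 30 bases before the start site, and C1qc held only a PU.1 core, on the other strand. Clec4f held a Maf motif and an RBPJ core, and Marco a PU.1 core and an RBPJ core on the other strand.

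All 9 genes had their highest level in macrophage-like cells of both libraries among the 9 named classes. For 8 of them the interval lay above that of every other named class in both libraries. Marco was the exception, in the library labelled AEG-1fl/fl, where 55.1 CPM (48.9 to 61.9) in macrophage-like cells and 37.5 CPM (24.3 to 55.4) in the 55 dendritic cell-like cells overlapped. The next class after macrophage-like cells was most often B cell-like or neutrophil-like. Single cells held a large part of the counts in both classes, as given with the summed levels. The excess over that class ran from 3.35-fold (Folr2) to 6.32-fold (Siglec1) in the library labelled AEG-1ΔMAC and from 1.47-fold (Marco) to 7.29-fold (Siglec1) in the library labelled AEG-1fl/fl. Over hepatocyte-like cells it was larger, between 19.4-fold (Marco) and 66.3-fold (Siglec1) in the first library and between 15.2-fold (Marco) and 67.0-fold (Siglec1) in the second. Siglec1 was thus the gene most restricted to macrophage-like cells and Marco the least, and this held in both libraries for the comparison with hepatocyte-like cells.

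**Figure D1:**
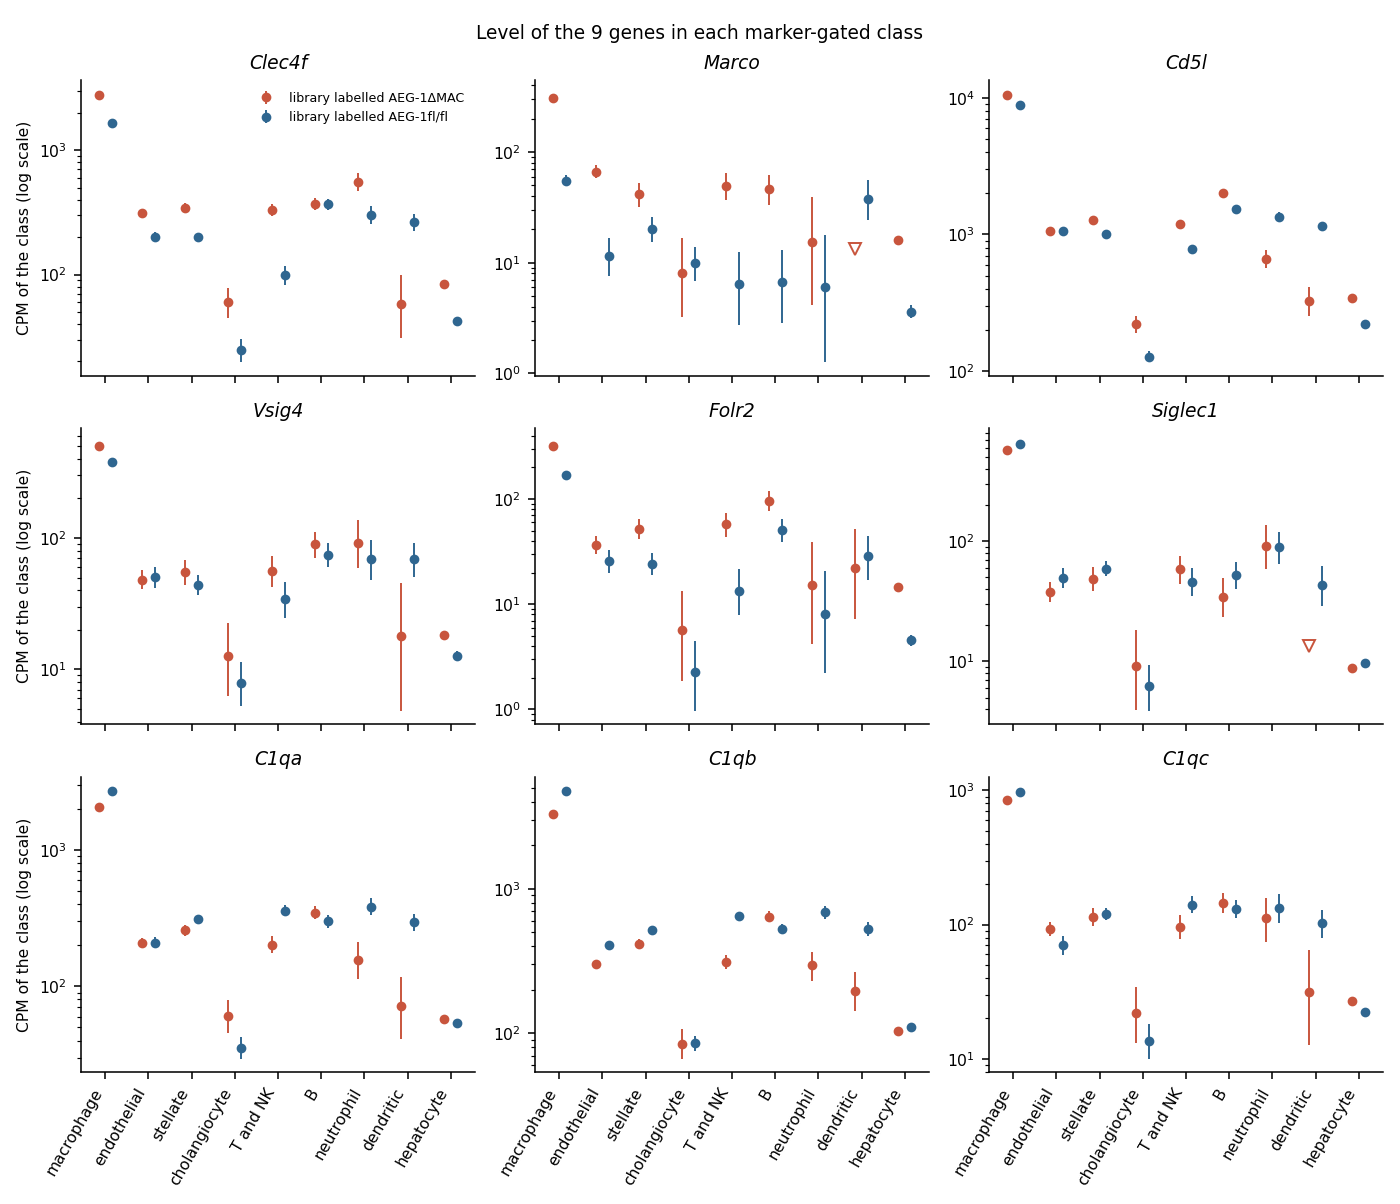
Level of each of the 9 genes in CPM on a log axis, in 9 marker-gated classes of the library labelled AEG-1ΔMAC (red) and the library labelled AEG-1fl/fl (blue), with Poisson 95% intervals and open triangles for the limit that a count of 0 allows. Macrophage-like cells stand above every other class, with Cd5l at 10540 and 8911 CPM there and at 340 and 222 CPM in the hepatocyte-like class.

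Between the libraries, the identity genes did not move together in macrophage-like cells. Marco, a class A scavenger receptor that binds bacteria and particles, had 513 and 282 counts, or 308 CPM (282 to 336) and 55.1 CPM (48.9 to 61.9). Its ratio was 2.48 (2.27 to 2.70). It was the 1 gene of the 9 past 2-fold higher in the library labelled AEG-1ΔMAC, where 2.32% of the 11062 genes with at least 20 summed counts were past 2-fold higher. None of the 9 was past 2-fold lower, where 2.66% of all genes were.

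Folr2, a folate receptor of resident tissue macrophages, had 536 and 864 counts, or 322 CPM (295 to 350) and 169 CPM (158 to 181), a ratio of 0.93 (0.77 to 1.09) whose interval included 2-fold. Clec4f, a lectin that in mouse is a marker of Kupffer cells, had 4603 and 8493 counts, or 2765 CPM (2685 to 2846) and 1660 CPM (1625 to 1696), a ratio of 0.74 (0.68 to 0.79). Both were higher in the library labelled AEG-1ΔMAC beyond counting error. Vsig4, the complement receptor CRIg that takes up C3b-coated particles, had 838 and 1941 counts, or 503 CPM (470 to 539) and 379 CPM (363 to 397), a ratio of 0.41 (0.29 to 0.53). Cd5l, a secreted scavenger protein known as AIM, had 17548 and 45591 counts, or 10540 CPM (10384 to 10697) and 8911 CPM (8830 to 8994), a ratio of 0.24 (0.22 to 0.27). These differences were smaller and in the same direction. Siglec1, the sialic acid receptor CD169, had 966 and 3329 counts, or 580 CPM (544 to 618) and 651 CPM (629 to 673), and with a ratio of -0.17 (-0.27 to -0.06) it was the only one of the 6 identity genes below 0. The 6 summed to 15018 and 11826 CPM, a ratio of 0.34 (0.32 to 0.37).

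The 3 chains of C1q were all lower in the library labelled AEG-1ΔMAC. C1qa had 3455 and 13821 counts, or 2075 CPM (2007 to 2146) and 2702 CPM (2657 to 2747), a ratio of -0.38 (-0.43 to -0.33). C1qb had 5449 and 24302 counts, or 3273 CPM (3186 to 3361) and 4750 CPM (4691 to 4810), a ratio of -0.54 (-0.58 to -0.50). C1qc had 1424 and 4994 counts, or 855 CPM (811 to 901) and 976 CPM (949 to 1004), a ratio of -0.19 (-0.28 to -0.11). Summed over the chains the levels were 6203 and 8428 CPM, a ratio of -0.44 (-0.47 to -0.41). The proportion of the chains differed by a few percentage points, beyond counting error for C1qb and C1qc. C1qa gave 33.5% (32.5 to 34.4) and 32.1% (31.6 to 32.5) of the C1q counts, C1qb 52.8% (51.8 to 53.7) and 56.4% (55.9 to 56.8) and C1qc 13.8% (13.1 to 14.5) and 11.6% (11.3 to 11.9). Over all 9 genes the opposite shifts nearly cancelled, at 21221 and 20253 CPM and a ratio of 0.07 (0.05 to 0.08). The median ratio of the 9 genes was 0.24 beside 0.03 over all genes, and the median absolute ratio was 0.41 beside 0.23.

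**Figure D2:**
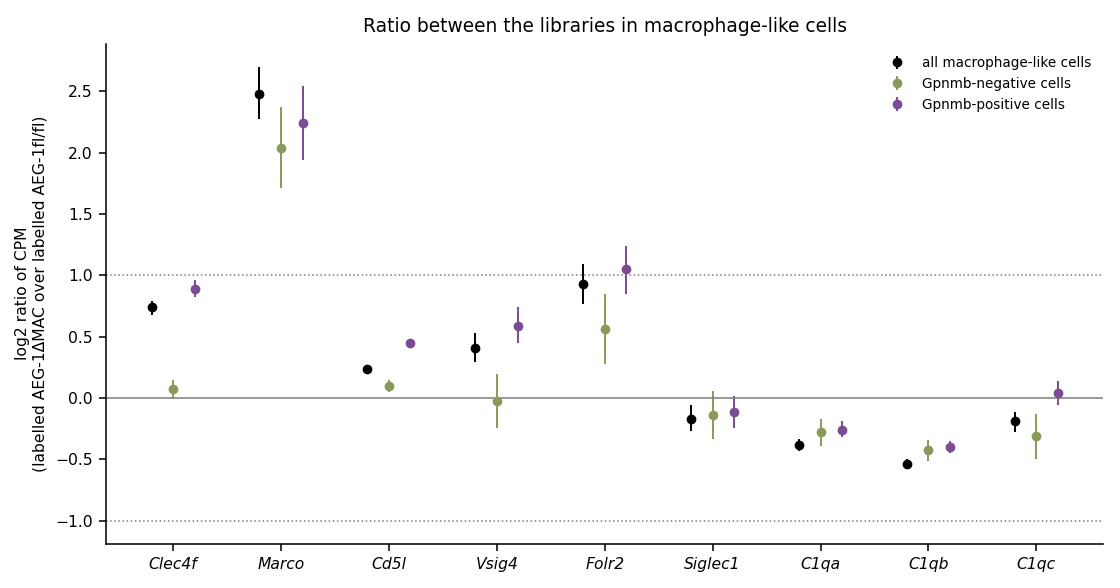
Log2 ratio of CPM between the libraries for each of the 9 genes in all macrophage-like cells (black) and in those without (green) and with (purple) a count of Gpnmb, with Clopper-Pearson 95% intervals and dotted lines at 2-fold. Marco lies above 2-fold in each group (2.48, 2.04 and 2.24), Clec4f lies at 0.07 in Gpnmb-negative and 0.89 in Gpnmb-positive cells (0.38 and 0.41 after thinning to 2000 counts), and C1qa and C1qb lie below 0 throughout.

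Of the 15 alternative ways to gate, filter or scale the macrophage-like cells, none changed the direction of Marco, Folr2, Clec4f, Cd5l, Siglec1, C1qa or C1qb. Marco ranged from 1.69, as a mean over cells, to 3.88, without the 5% of cells of each library that held most of its counts. Those cells held 81.3% and 92.6% of the Marco counts, so the value of 3.88 rests on the few counts that were left. Clec4f ranged from 0.07 to 1.15, Folr2 from 0.56 to 1.05, C1qb from -0.76 to -0.40 and Siglec1 from -0.34 to -0.06. Subtraction of the hepatocyte-like profile at the share given above left Marco at 2.59, Clec4f at 0.84, Folr2 at 1.03, Siglec1 at -0.06, C1qb at -0.43 and C1qc at -0.09.

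Few cells held most of the Marco counts. A count of Marco was found in 44 of 234 (18.8%) and 55 of 663 (8.30%) macrophage-like cells. The 12 cells with the most Marco, 5% of the class, held 81.3% of its counts in the library labelled AEG-1ΔMAC, and the 34 cells with the most held 92.6% in the other library. At the extreme, 5 and 3 cells held 50% of the counts, with up to 73 and 63 counts in 1 cell. The other genes were spread over more cells. The 5% of cells with the most Clec4f held 29.5% and 38.9% of the Clec4f counts, and 27 and 53 cells were needed for 50% of them. The 5% of cells with the most C1qb held 37.7% and 32.3% of the C1qb counts.

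Because a deep cell shows a gene more easily, each cell was also thinned to 1000 counts, which left out 8 and 21 macrophage-like cells and kept 226 and 642. At that depth, Clec4f was detected in 58.4% (51.7 to 64.9) and 40.7% (36.8 to 44.6) of macrophage-like cells, Marco in 11.5% (7.65 to 16.4) and 2.49% (1.43 to 4.02), Vsig4 in 32.3% and 25.2% and Folr2 in 19.9% and 14.8%. Cd5l was detected in 81.4% and 77.6%. Siglec1 was detected in 35.4% and 43.0%, C1qa in 65.5% and 74.6%, C1qb in 78.3% (72.4 to 83.5) and 88.8% (86.1 to 91.1) and C1qc in 36.3% and 50.5%. The shares of cells thus differed in the same directions as the levels for all 9 genes at 1000 counts, and for 8 of them at 5000 counts, where Cd5l was at 87.6% and 89.3%, and the intervals of the libraries at 1000 counts were apart for Clec4f, Marco, C1qb and C1qc. Unthinned, the shares were 70.9% and 57.3% for Clec4f and 90.2% and 94.6% for C1qb.

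Endothelial-like cells should lack these genes and gave the background of this measure, at median depths of 4616 and 3938 counts. At 1000 counts, Cd5l was detected in 37.5% and 35.8% of them, C1qb in 16.9% and 20.9%, C1qc in 3.65% and 5.74%, Marco in 2.99% and 0.261% and Siglec1 in 1.99% and 2.35%. In hepatocyte-like cells, with medians of 34820 and 41508 counts, the shares at 1000 counts were 27.9% and 16.4% for Cd5l, 10.1% and 10.5% for C1qb and 7.70% and 5.52% for Clec4f. All 9 shares in macrophage-like cells were above both backgrounds in each library, though for Marco in the library labelled AEG-1fl/fl the interval touched that of endothelial-like cells (0.00661 to 1.45).

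**Figure D3:**
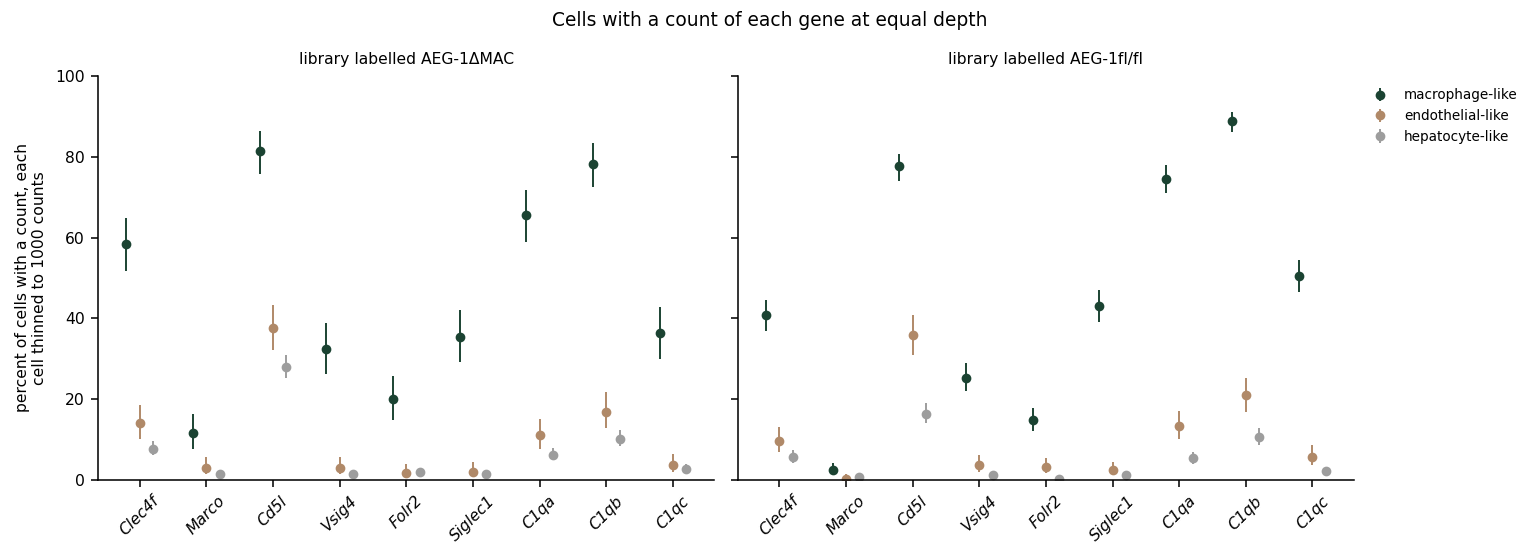
Percent of cells with a count of each gene after every cell was thinned to 1000 counts, in macrophage-like, endothelial-like and hepatocyte-like cells of each library, with Clopper-Pearson 95% intervals. Macrophage-like cells lie highest for each gene, with Cd5l at 81.4% and 77.6% against 37.5% and 35.8% in endothelial-like cells.

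The combination of Clec4f with C1q also differed. At 2000 counts per cell a macrophage-like cell was called positive for a gene when its count exceeded a cut, over 198 and 554 cells. The cut was the 95th percentile of endothelial-like cells of both libraries together. Unthinned, those cells had 314 and 199 CPM of Clec4f, 209 and 209 CPM of C1qa, 303 and 406 CPM of C1qb and 92.5 and 70.1 CPM of C1qc. The part of such differences in background in the shares below was not tested. Cells with both Clec4f and a C1q chain made up 43.9% (36.9 to 51.2) and 30.5% (26.7 to 34.5). Cells with a C1q chain but without Clec4f made up 27.3% (21.2 to 34.0) in the library labelled AEG-1ΔMAC and 52.0% (47.7 to 56.2) in the library labelled AEG-1fl/fl, the largest difference among the combinations. Cells with Clec4f but without C1q were few, 7.07% and 2.89%, and 14.1% and 9.39% had none of the 9 genes above the background. Within macrophage-like cells thinned to 5000 counts, the counts of the C1q chains were ranked alike, with Spearman's rho between 0.74 and 0.83 over 121 and 363 cells. Clec4f and Cd5l had a rho of 0.72 and 0.62. Clec4f and C1qb had a rho of 0.45 in the library labelled AEG-1ΔMAC and 0.03 in the other. With C1qa it was 0.50 and 0.15 and with C1qc 0.52 and 0.16. The rho of Cd5l was 0.53 and 0.41 with C1qa, 0.50 and 0.30 with C1qb and 0.55 and 0.42 with C1qc. These are descriptions across cells that share 1 library, and carry no test.

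Gpnmb, a lysosomal glycoprotein of lipid-associated macrophages that is on none of the gating lists, was used to split the class. Cells with a count of Gpnmb made up 42.3% (99 of 234) and 68.9% (457 of 663) of macrophage-like cells. They were deeper than the others, with medians of 5905 against 4872 counts in the library labelled AEG-1ΔMAC and 6133 against 3954 in the library labelled AEG-1fl/fl, and the split was therefore repeated after all cells were thinned to 2000 counts. Before thinning, C1q was higher in Gpnmb-positive cells of both libraries. The log2 ratio of positive over negative cells was 0.62 and 0.60 for C1qb, 0.56 and 0.54 for C1qa and 0.94 and 0.59 for C1qc. Cd5l (0.80 and 0.44) and Siglec1 (0.23 and 0.20) were also higher there. Marco was lower in Gpnmb-positive cells, by -1.17 and -1.38. Clec4f had 2579 CPM in positive and 3024 CPM in negative cells of the library labelled AEG-1ΔMAC, a ratio of -0.23 (-0.31 to -0.15), and 1389 and 2881 CPM in the library labelled AEG-1fl/fl, a ratio of -1.05 (-1.12 to -0.99). Folr2 and Vsig4 were lower in positive cells in the library labelled AEG-1fl/fl only (-0.39 and -0.28), with 0.09 (-0.16 to 0.34) and 0.33 (0.13 to 0.54) in the other library. After thinning, C1qb was at 0.34 and 0.44, Marco at -2.21 and -1.31 and Clec4f at -0.78 and -0.81, so the unlike fall of Clec4f in the libraries was not seen in the thinned cells. The thinned library labelled AEG-1ΔMAC had 66 positive and 132 negative cells. C1qa had 234 and 453 counts in them and Siglec1 65 and 148. Per cell, C1qa was thus nearly equal and Siglec1 no longer higher in positive cells of that library.

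Among Gpnmb-negative cells, the libraries had nearly the same Clec4f, at 3024 and 2881 CPM and a ratio of 0.07 (-0.01 to 0.15). Vsig4, at 437 and 444 CPM, had a ratio of -0.02 (-0.24 to 0.20). Marco stayed higher in the library labelled AEG-1ΔMAC, at 456 and 111 CPM and a ratio of 2.04 (1.71 to 2.37), and so did Folr2, at 310 and 210 CPM and 0.56 (0.28 to 0.85). C1qb stayed lower, at -0.42 (-0.51 to -0.34). Among Gpnmb-positive cells, Clec4f had a ratio of 0.89 (0.82 to 0.96), Folr2 1.05 (0.85 to 1.24) and Marco 2.24 (1.94 to 2.54), while C1qb was at -0.40 (-0.45 to -0.35) and C1qc at 0.04 (-0.06 to 0.14). When Gpnmb was called after thinning, in 66 and 335 positive and 132 and 219 negative cells, Clec4f was higher in the library labelled AEG-1ΔMAC on both sides, at 0.38 (0.25 to 0.51) in negative and 0.41 (0.20 to 0.62) in positive cells. The contrast between 0.07 and 0.89 was not seen in these thinned cells, which also leave out cells under 2000 counts and weigh every cell alike. Folr2 was at 0.30 (-0.18 to 0.77) in negative cells, no longer beyond counting error, and at 0.92 (0.31 to 1.49) in positive cells. C1qc was at -0.33 (-0.62 to -0.05) in negative and -0.35 (-0.67 to -0.04) in positive cells, where it had been at 0.04 without thinning. C1qb was at -0.39 (-0.52 to -0.26) and -0.49 (-0.63 to -0.35), and Marco was at 2.01 (1.48 to 2.57) in negative cells and, with 11 and 26 counts, at 1.10 (-0.06 to 2.17) in positive cells.

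Depth divided the macrophage-like cells further. Cells were grouped at under 2000 counts (36 and 109 cells), 2000 to 5000 (77 and 191), 5000 to 15000 (107 and 297) and 15000 or more (14 and 66). The 9 genes together had 28167, 18298, 18347 and 27106 CPM from the shallowest to the deepest cells of the library labelled AEG-1ΔMAC, and 31693, 17595, 19360 and 21406 CPM in the library labelled AEG-1fl/fl. Their level was lowest in the middle range of depth. In the library labelled AEG-1fl/fl it was highest in the shallowest cells, whereas in the other library the shallowest (26645 to 29755) and the deepest cells (26650 to 27568) overlapped. The macrophage list that gated the class was also highest in the shallowest cells. It had 11562, 9530, 9361 and 9022 CPM in the library labelled AEG-1ΔMAC and 13923, 10298, 11868 and 11911 CPM in the other. The part of the gate in the level of shallow cells was not tested.

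Single genes followed depth differently in the libraries. In the library labelled AEG-1fl/fl, Clec4f was at 2928, 2019, 1961 and 1069 CPM and Marco at 284, 101, 63.3 and 11.4 CPM, so both were lower in each deeper group. In the library labelled AEG-1ΔMAC, Clec4f stayed at 2885, 2728, 2874 and 2587 CPM, and Marco was at 396, 171, 395 and 227 CPM without such an order. The ratio between the libraries for Clec4f therefore ran from -0.02 (-0.31 to 0.26) in the shallowest to 1.27 (1.17 to 1.38) in the deepest cells. For Marco it ran from 0.48 (-0.40 to 1.31) to 4.32 (3.65 to 5.05), and for Folr2 from 0.48 (-0.27 to 1.19) to 1.56 (1.29 to 1.83). C1qb showed no such widening, with -0.40, -0.42, -0.65 and -0.38. In the deepest cells C1qc and Siglec1 were higher in the library labelled AEG-1ΔMAC, at 0.20 (0.07 to 0.32) and 0.23 (0.06 to 0.41), against -0.40 (-0.53 to -0.26) and -0.52 (-0.68 to -0.37) in cells of 5000 to 15000 counts. The C1q chains rose as a share of the 9 genes with depth in the library labelled AEG-1fl/fl, with 36.7%, 39.0%, 39.9% and 44.8%, and stayed between 28.0% and 31.1% in the other. Gpnmb moved along with depth in the library labelled AEG-1fl/fl, from 1494 and 1443 CPM in the shallower groups to 1973 and 3606 CPM in the deeper ones, and was at 903, 1123, 472 and 789 CPM in the library labelled AEG-1ΔMAC. Its part in the depth pattern was not tested.

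**Figure D4:**
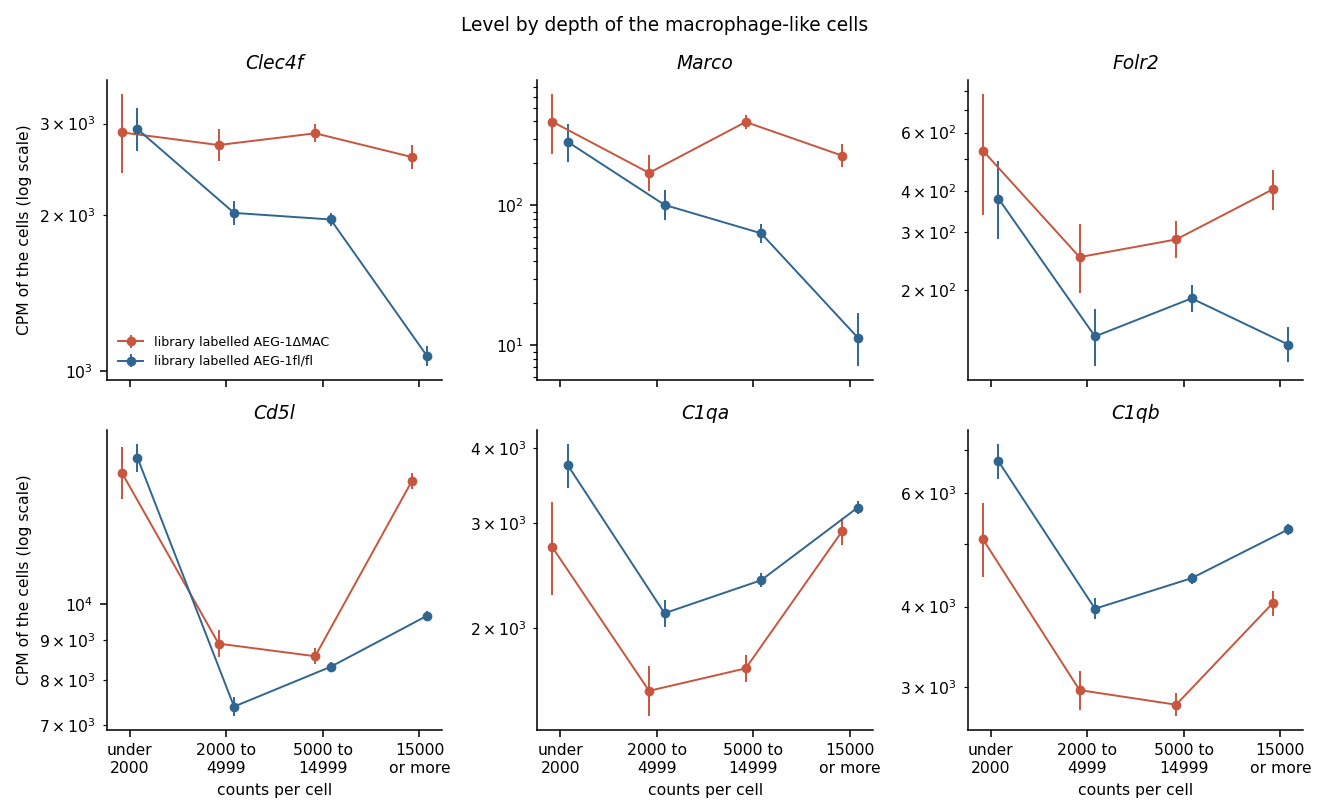
Level in CPM on a log axis of 6 of the genes by the number of counts per macrophage-like cell, in the library labelled AEG-1ΔMAC (red) and the library labelled AEG-1fl/fl (blue), with Poisson 95% intervals. Clec4f falls with depth from 2928 to 1069 CPM in the library labelled AEG-1fl/fl and stays between 2587 and 2885 CPM in the other.

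Counts of the 9 genes were also found in the classes other than macrophage-like cells. Of all their counts in kept cells, 125460 and 198994, macrophage-like cells held 28.2% and 52.1% and hepatocyte-like cells 30.8% and 14.6%. Hepatocyte-like cells numbered 961 and 870, and their many counts per cell carried this share. Scaled to the counts of the class, the 9 genes had 670 CPM (664 to 677) and 482 CPM (476 to 488) in hepatocyte-like cells, 3.16% and 2.38% of their level in macrophage-like cells. Endothelial-like cells had 10.2% and 10.3%, stellate-like cells 12.3% and 11.4%, T and NK cell-like cells 11.1% and 10.5%, neutrophil-like cells 9.37% and 14.9% and cholangiocyte-like cells 2.28% and 1.54%. B cell-like cells had the highest level outside macrophage-like cells among the named classes, at 3787 and 3033 CPM. Neutrophil-like cells of the library labelled AEG-1fl/fl were close to that, at 3027 CPM. A single cell held 33.0% and 29.3% of the counts of the 9 genes in B cell-like cells, whose medians were 4 and 5 counts. In neutrophil-like cells a single cell held 79.4% and 27.4%. Hepatocyte-like and cholangiocyte-like cells were the lowest in both libraries, with dendritic cell-like cells of the library labelled AEG-1ΔMAC close to them at 3.41%. The 8 genes of the macrophage list stood at 331 and 328 CPM in hepatocyte-like and 708 and 807 CPM in endothelial-like cells beside 9347 and 11734 CPM in macrophage-like cells.

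Nearly every hepatocyte-like cell had at least 1 count of the 9 genes, the median being 17 and 13 counts, and 1.46% and 3.45% of cells had none. Endothelial-like cells had a median of 4 and 3 counts, and 20.8% and 24.2% had none. Macrophage-like cells had a median of 74 and 79 counts. In hepatocyte-like cells the level did not fall away in shallow cells, with 795, 839, 580 and 637 CPM from the shallowest (10000 to 20000 counts) to the deepest group (100000 counts or more) of the library labelled AEG-1ΔMAC and 666, 666, 516 and 406 CPM in the other. In the hepatocyte-like cells without a count of any gene of the macrophage list, 29 and 14 cells, the level was 0.609% and 0.736% of that in macrophage-like cells.

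How these counts came into the other classes was not tested. Their makeup could be set beside that of macrophage-like cells. The C1q chains made up 29.2% (28.8 to 29.7) of the counts of the 9 genes in macrophage-like cells of the library labelled AEG-1ΔMAC and 41.6% (41.3 to 41.9) in those of the library labelled AEG-1fl/fl. Hepatocyte-like cells had 28.1% (27.7 to 28.6) and 38.8% (38.3 to 39.4), stellate-like cells 30.1% and 41.4% and endothelial-like cells 27.8% and 32.9%. Of these 3 classes, each had a C1q share nearer to that of macrophage-like cells of its own library than to that of the other, except in endothelial-like cells of the library labelled AEG-1fl/fl, where it lay between them and nearer to the other library and was 33.4% without the 3 cells that held the most C1q. Dendritic cell-like cells of the library labelled AEG-1ΔMAC also went the other way, at 41.4% (33.7 to 49.4) of 162 counts and 40.5% without such cells, as did unassigned cells of the library labelled AEG-1fl/fl at 34.7%. T and NK cell-like cells had 26.1% and 53.7%, but 3 cells held 74.8% of the C1q counts in the library labelled AEG-1fl/fl, and without them the share was 40.4%. Likewise B cell-like cells had 30.0% and 31.5%, and the second value was 40.7% without the 3 cells that held the most C1q.

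The makeup was not identical in every class. Marco gave 1.45% (1.33 to 1.58) of the counts of the 9 genes in macrophage-like cells and 2.37% (2.22 to 2.53) in hepatocyte-like cells in the first library, and 0.272% (0.241 to 0.306) and 0.752% (0.656 to 0.858) in the second. Siglec1 went the other way, with 2.73% and 1.31% in the first library and 3.21% and 2.01% in the second. The ratio between the libraries in hepatocyte-like cells followed that in macrophage-like cells for some genes, with 2.13 (1.92 to 2.35) for Marco, 1.68 (1.48 to 1.88) for Folr2, 0.98 (0.91 to 1.05) for Clec4f and -0.15 (-0.32 to 0.03) for Siglec1. For C1q it was 0.01 (-0.03 to 0.05) over the 3 chains, where macrophage-like cells had -0.44.

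**Figure D5:**
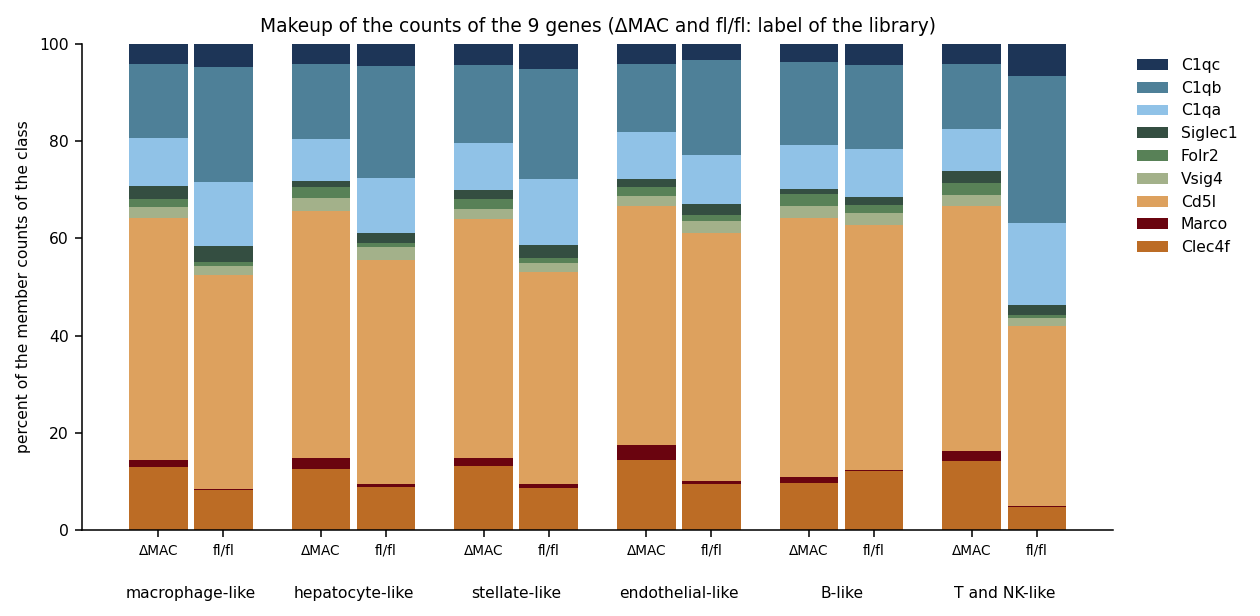
Percent of the counts of the 9 genes that each gene gave in 6 classes, as stacked bars from 0 to 100, with the library labelled AEG-1ΔMAC on the left and the library labelled AEG-1fl/fl on the right of each pair. The blue C1q part is 29.2% and 41.6% in macrophage-like and 28.1% and 38.8% in hepatocyte-like cells, and the tall C1q part of T and NK cell-like cells in the second library rests on 3 cells.

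Cells in which a second list, other than that of hepatocytes, came within 2-fold of the first were set aside as mixed. They were 60 and 128 cells with medians of 11152 and 8750 counts. They had 8412 and 10633 CPM of the 9 genes, or 39.6% and 52.5% of the level in macrophage-like cells. Marco stood at 225 and 83.6 CPM there, in the library labelled AEG-1fl/fl above the 55.1 CPM of macrophage-like cells. Dendritic cell-like cells differed most between the libraries, with 3.41% and 12.4% of the macrophage level over 23 and 55 cells, and no count of Marco or Siglec1 in the first library, where a count of 0 allows up to 13.4 CPM. In the second library 1 cell held 32.7% of their counts of the 9 genes.

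Among 26 other genes of Kupffer cells, 4 were past 2-fold higher in the library labelled AEG-1ΔMAC and none lower, with a median ratio of 0.18. They were Timd4, a phosphatidylserine receptor of embryo-derived Kupffer cells (139 and 51.2 CPM, ratio 1.44), the ficolin Fcna (379 and 122 CPM, 1.64), the glutamate transporter Slc1a3 (24.6 and 10.8 CPM, 1.20) and the chemokine Cxcl13 (69 and 16 counts, 3.73). Cd163, the hemoglobin scavenger receptor, had a ratio of 0.57 and the lectin Clec1b 0.35. The efferocytosis receptors Axl and Mertk were at -0.39 and 0.01, and Hmox1, which degrades heme, at -0.66. The transcription factors Nr1h3 (0.23), Spic (0.47), Maf (-0.18) and Id3 (-0.30) stayed within 2-fold. Maf was highest in endothelial-like cells and Id3 in stellate-like cells of both libraries. In the library labelled AEG-1fl/fl, Fcna was highest in stellate-like cells, at 224 CPM, and Cxcl13 in neutrophil-like cells, at 8.12 CPM.

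Of 16 partners and receptors of C1q, 14 had at least 20 counts, 3 were past 2-fold lower in the library labelled AEG-1ΔMAC and none higher, with a median of 0.02. The lower ones were the receptors Cd93 (79.3 and 201 CPM, ratio -1.34), C5ar1 (97.9 and 271 CPM, -1.47) and C3ar1 (186 and 372 CPM), whose ratio lay just past the limit. Itgam, a chain of complement receptor CR3, lay just within it (88.3 and 176 CPM). Cd93 was highest in endothelial-like cells. The proteases that complete the C1 complex stayed within 2-fold, with C1ra at 0.17 and C1s1 at 0.13. Their inhibitor Serping1 was at 0.18. C1ra, C1s1, Serping1, C3 and C4b had higher levels in hepatocyte-like than in macrophage-like cells. C1s1 had 520 and 591 CPM in the former and 159 and 145 CPM in the latter. Serping1 had 660 and 762 CPM in the former and 233 and 205 CPM in the latter. The part of hepatocyte RNA in these macrophage-like levels, and so in their ratios, was not tested. Lrp1, an uptake receptor that binds C1q, was at -0.19 and calreticulin (Calr) at -0.01.

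Of 16 genes of monocytes and lipid-associated macrophages, 14 were in the matrices, 9 were past 2-fold lower in the library labelled AEG-1ΔMAC and 2 higher, with a median of -1.18. Among the lower were Gpnmb (685 and 2505 CPM, ratio -1.87), the lipid receptor Trem2 (96.1 and 287 CPM, -1.58) and osteopontin, Spp1 (60 and 1657 counts, -3.17). The higher were Chil3 (1.26) and Plac8 (1.69), genes of classical monocytes. Ccr2, the receptor that brings monocytes into tissue, was at -0.14 (-0.30 to 0.02). Spp1 was highest in cholangiocyte-like cells of both libraries, at 5753 and 4772 CPM. In the library labelled AEG-1ΔMAC its level in macrophage-like cells lay below the 77.2 CPM of hepatocyte-like cells. In the library labelled AEG-1fl/fl it was 324 CPM beside 243 CPM in hepatocyte-like cells. The part of RNA from other classes in the Spp1 ratio was not tested.

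Genes with a profile like that of the 9 were ranked by Pearson's r of centred log2(CPM + 10) over 18 points, the 9 named classes of both libraries, among 4173 genes with at least 50 CPM in macrophage-like cells of each library. The 10 nearest were Adgre1 (0.981), Il18bp (0.978), Slc11a1 (0.967), Pltp (0.967), Fcgr4 (0.961), Dmpk (0.958), Csf1r (0.953), Aoah (0.952), Slc7a8 (0.952) and Lgmn (0.951). Adgre1 and Csf1r are on the list that gated the class. Against the mean of the 9, of which each is a part, Cd5l had 0.988 and Marco only 0.782. The points share libraries and depth, and r is given as a description.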

How the data were processed

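Single-cell RNA was measured with hybridised probes in 1 library per label, so the 2 groups have no replicates. The files the authors deposited hold unnormalised counts for each gene in each cell, made with Cell Ranger 7.1.0 according to the submitters' processing notes on the mm10 build. The study's methods name another version of that tool. No ambient RNA was subtracted and no doublets were called here, and no column lacked a sample.

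The cell filter asked for 100 or more genes and for no more than 10% mitochondrial counts, and kept cells were gated by marker lists. Hepatocyte-like cells had at least 10000 counts and a hepatocyte list share of at least 0.5 times its reference share. No other list stood at 2 or more times its own reference share. Counts were summed per class and scaled to CPM. Genes with at least 20 summed counts formed the background of 2-fold changes, and the limit behind a count of 0 was 3 counts. For that background, the main counts of genes past 2-fold and the medians beside them, 0.5 was added to every count. The ratios printed for single genes had no such addition. Intervals have a level of 95%. Gate and ratios were tested on simulated counts. These were drawn from the summed counts of the gated classes without added spread between cells, and the only mixtures held the hepatocyte-like profile. Errors from uneven cells or from other doublets could therefore not show there.

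Alternatives were a stricter and a looser gate, clusters made without the 9 genes (Seurat 5.3.0), depth and cell filters, TMM scaling (edgeR 4.0.16), size factors (DESeq2 1.42.0, R 4.3.3), subtraction of the hepatocyte-like profile and a mean over cells. No test of edgeR or DESeq2 was run. Python 3.11.15 with NumPy 2.4.6, SciPy 1.17.1, pandas 2.3.3 and matplotlib 3.10.9 was used.

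The 9 genes and all lists were chosen with earlier results of these data known. Beside them, Mtdh and the 10 genes with the most similar profile were named, and from the lists those past 2-fold and the partners and receptors of the 9. Values of the remaining list genes are not reported here. Values for some other list genes and for Lyz2 were added after they were seen. The Gpnmb-positive and Gpnmb-negative classes as alternatives, the thinned version of that comparison, the cells with the most counts of a gene left out, enrichment within a library and mixed cells kept were also chosen after the data were seen.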

Additional observations from a re-analysis of the deposited data

Results flagged for a closer look

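Counts of the 9 genes were present in the cells that the filter left out, which no comparison used. In the library labelled AEG-1ΔMAC, 10 such cells held 62 counts of the 9 genes, or 586 CPM (450 to 752), above the 28.4 CPM that a count of 0 allows. In the library labelled AEG-1fl/fl, 27 such cells held 521 counts, or 1455 CPM (1333 to 1585), above a limit of 8.38 CPM. Genes of the macrophage list stood at 445 and 871 CPM in the same cells.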

How the results depend on the processing

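With 1 library per label, no value could be set against the spread between mice, and counting intervals understate the error. Few cells held most counts of Marco. No paired analysis was possible because each label had 1 library. Of 135 alternative ratios of single genes in macrophage-like cells, 64 moved by less than the counting interval, 69 moved by more in the same direction and 2 reversed, namely Vsig4 at -0.02 in Gpnmb-negative cells and C1qc at 0.04 in Gpnmb-positive cells. The cause of the reversals and shifts was not tested. The median ratio of the 9 genes, 0.24, was 0.12 with the looser gate, 0.06 with clusters made without the 9 genes and with enrichment over the same library, 0.35 with the hepatocyte-like profile subtracted, 0.14 as a mean over cells, 0.19 with mixed cells kept, -0.02 in Gpnmb-negative and 0.45 in Gpnmb-positive cells. The number of genes past 2-fold rose from 1 to 2 with the profile subtracted and in Gpnmb-positive cells, when Folr2 (1.03 and 1.05) joined Marco. Without a minimum count, 12.0% of all genes were past 2-fold in either direction in place of 4.98%.

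The level in hepatocyte-like cells, 3.16% and 2.38% of that in macrophage-like cells, was 2.65% and 2.04% with the stricter gate, 5.41% and 3.41% with clusters, and 0.609% and 0.736% in hepatocyte-like cells without a count of the macrophage list. The median difference in the share of cells with a gene, 3.85 percentage points at 1000 counts, was 2.07 at 2000 and -1.65 at 5000 counts. The log2 ratio of the deepest over the shallowest macrophage-like cells, -0.06 and -0.57, was 0.10 and -0.21 with depth groups of equal cell number. The median log2 ratio of Gpnmb-positive over Gpnmb-negative cells, 0.33 and 0.20, was 0.08 in the library labelled AEG-1ΔMAC after thinning. A split by the other lipid-associated genes gave medians of -0.08 and -0.82, with Marco at 0.01 and C1qb at -0.08 in the library labelled AEG-1ΔMAC, but left only 8 and 5 cells on the negative side. The C1q share of the 9 genes over the classes outside macrophage-like cells, 28.4% and 38.9%, was 30.8% and 37.4% without cells that held 3 or more counts of the macrophage list.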

Other observations

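Cells that reached no class, 613 and 716 in the library labelled AEG-1ΔMAC and the library labelled AEG-1fl/fl, also held the 9 genes. Those under 2000 counts had 3269 CPM (2969 to 3590) and 3158 CPM (2927 to 3402), and those with 2000 to 10000 counts had 2818 CPM (2738 to 2900) and 1724 CPM (1668 to 1782). Those with at least 10000 counts had 1873 CPM (1845 to 1901) and 1689 CPM (1660 to 1719). The C1q chains made up 26.7% and 34.7% of these counts. The clusters made without the 9 genes placed 386 and 929 cells in macrophage-like clusters, which held 94.9% and 93.5% of the gated macrophage-like cells.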
